A study of Mus musculus with 12 samples.

Results

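The genes that mark plasmacytoid dendritic cells (pDC) were followed across splenic type 2 conventional dendritic cells (cDC2) of different origin: Siglech, Cox6a2, Ly6c2, Cd300c, Ccr9, Plac8, Spib, Runx2, Klk1 and Tlr7, taken by gene name, 10 of the 55322 genes of the deposited table. CLP-cDC2 descend from common lymphoid progenitors (CLPs) and CDP-cDC2 from common dendritic cell progenitors (CDPs), in both cases CD45.2+ and from wild-type C57BL/6J donors, injected into the marrow cavity of B6.SJL recipients (CD45.1+). Il7r-Cre;Rosa26-lsl-tdTomato mice gave L-cDC2, which carry the tdTomato label, and M-cDC2, which do not; in these mice, Cre made wherever the interleukin-7 receptor gene is active, as in lymphoid progenitors, marks a cell and all cells that come from it. Every group, the myeloid ones too, came from spleen 4 days after lipopolysaccharide (LPS, 5 mg/kg, intraperitoneal), with mice given as 7 to 8 weeks of age, and each group held 3 libraries. All groups thus share the LPS, and the recipients keep their own dendritic cells, from which the donor cells are told by CD45. The reporter mice carry both alleles in L-cDC2 and in M-cDC2, whereas the transferred cells are wild type, so that genotype and transfer cannot be told apart in comparisons across the systems.

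Plasmacytoid dendritic cells are round, secretory dendritic cells that sense viral nucleic acid in endosomes through Tlr7 and Tlr9 and answer with large amounts of type I interferon. They arise from both lymphoid and myeloid progenitors. The E protein Tcf4 holds their identity together with Spib, Runx2 and Irf8, and Id2, an inhibitor of E proteins, marks the conventional subsets instead. Several pDC genes are not exclusive to them: Spib and Tlr7 are also used by B cells, Tlr7 and Irf7 by other myeloid cells, and Ly6c2, Plac8 and Cd300c by monocytes.

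Levels are in FPKM, which scale reads to gene length and to library depth, and the depth recovered from them ran from 26543345 to 73732243 assigned reads per library. No libraries of a group held the same values, and CDP-cDC2 replicate 3 and M-cDC2 replicate 3 stood apart from the rest, at 50.6 on the second and 40.5 on the third principal component. Whether a replicate is its own animal is not stated in the labels; the p-values therefore speak to variation among the present samples alone, and that may be technical. The 12 cDC2 markers listed, Sirpa and Itgax among them, passed the filter on low values and summed to 7083 to 8780 FPKM in CLP-cDC2, 11130 to 12043 in CDP-cDC2, 8088 to 8689 in L-cDC2 and 9943 to 11623 in M-cDC2, mostly from the class II gene H2-Ab1, which averaged 7560 to 10823 FPKM over the groups. Group means of Sirpa were 41.0 to 109.9 FPKM, and those of Clec10a 1.36 to 5.02 FPKM. Among the pDC genes, Siglech did not exceed 8.37 FPKM, Runx2 5.46, Tlr7 5.84 and Ly6c2 3.95 in any library, Ccr9 stayed under 1, and Klk1 was at 0 in 10 of 12 libraries. Plac8 (375 to 814 FPKM) and Spib (16.4 to 38.9 FPKM) were the abundant members. The set thus holds pDC genes by name, and its levels were read in cDC2. In bulk samples, fewer cells of a type and less RNA per cell cannot be told apart.

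The pDC genes did not move as a block in cells of lymphoid origin. In CLP-cDC2 against CDP-cDC2, Cox6a2 and Plac8 rose and Tlr7 fell, 3 of the 8 members that passed a filter of at least 1 FPKM in at least 3 libraries (limma on log2(FPKM + 1), all 12 libraries in the fit, Benjamini-Hochberg adjusted p under 0.05 over 14538 genes), while 13.1% of all genes tested were called, 7.02% higher and 6.12% lower. In L-cDC2 against M-cDC2, Cd300c fell and no member rose, 1 of 8, with 1.73% of all genes called (1.29% higher, 0.44% lower). The median log2 difference of the 8 members was 0.40 in the first comparison (all genes, -0.01) and 0.25 in the second (all genes, 0.04). CLP-cDC2 against L-cDC2, the comparison of transferred and fate-mapped lymphoid cells that the study asked about, gave Cox6a2 and Plac8 higher and Spib and Tlr7 lower, 4 of 8, with 10.6% of all genes called (4.29% higher, 6.32% lower) and a median of 0.26 (all genes, -0.004). CDP-cDC2 against M-cDC2 gave Tlr7 higher, 1 of 8, with 2.58% of all genes called (1.62% higher, 0.956% lower) and a median of 0.13 (all genes, 0.02). Differences on this scale understate the change of low genes, and Ccr9 and Klk1 did not pass the filter.

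**Figure D1:**
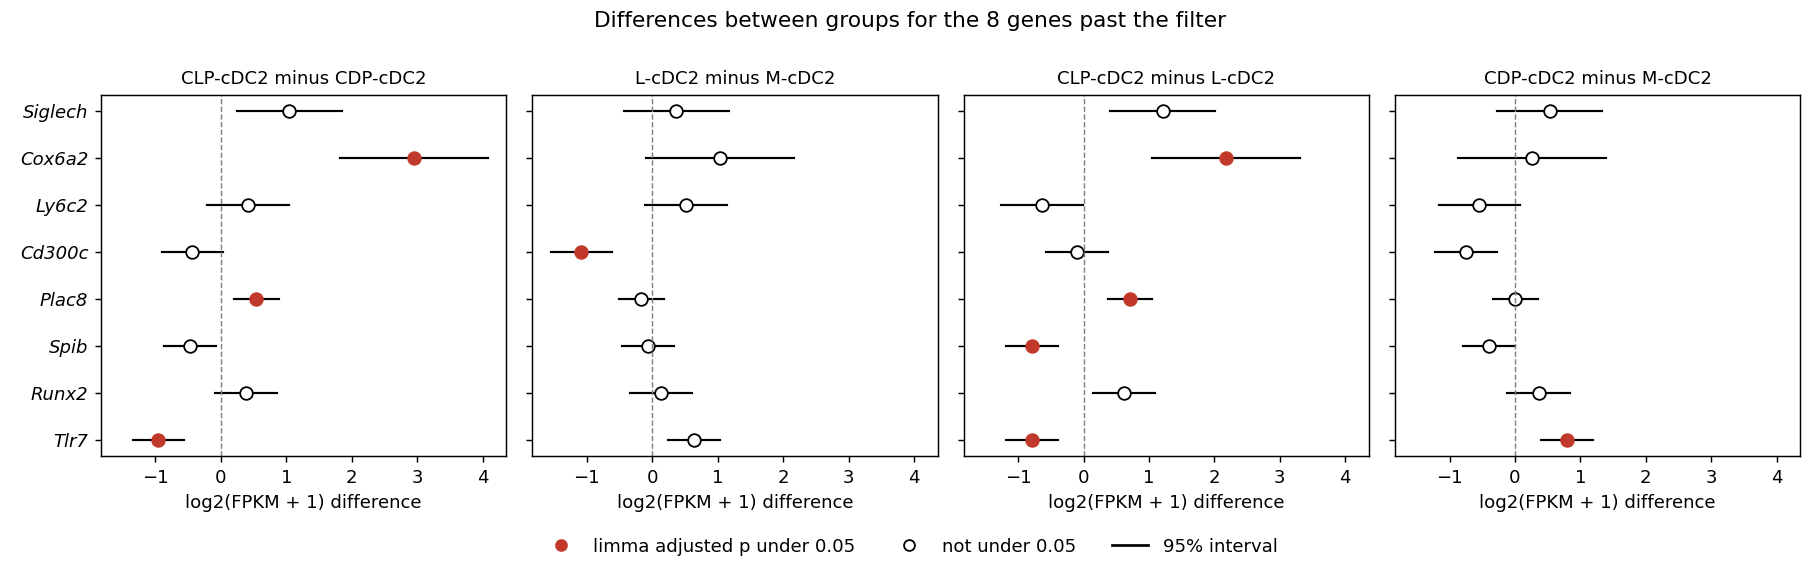
Log2(FPKM + 1) difference (x axis) of the 8 tested genes in 4 comparisons, with 95% intervals from the limma fit; filled points have an adjusted p under 0.05. Cox6a2 lies at 2.95 in CLP-cDC2 minus CDP-cDC2 and at 1.03 in L-cDC2 minus M-cDC2, and Tlr7 lies at -0.95 in CLP-cDC2 minus CDP-cDC2 and at 0.80 in CDP-cDC2 minus M-cDC2.

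Promoters are shown for Siglech and Plac8, whose levels over the 12 libraries ran with those of Cox6a2, and for Spib, whose levels ran against them, as described further on. They span 250 bases before to 50 bases after the gene start and come from RefSeq (GRCm38.p6), where 8 of the 10 members were matched; Cox6a2 and Tlr7 are named only. The sequences are Siglech (chr7:55767934-55768233, plus strand), Plac8 (chr5:100572156-100572455, minus strand) and Spib (chr7:44532022-44532321, minus strand), 5′ to 3′, with the E-box CACCTG and the Runx motif ACCACA in capitals on either strand. The build of the deposited gene coordinates, used for all other positions here, was not given in the sources used here, so both sets of positions are not interchangeable.
Siglech: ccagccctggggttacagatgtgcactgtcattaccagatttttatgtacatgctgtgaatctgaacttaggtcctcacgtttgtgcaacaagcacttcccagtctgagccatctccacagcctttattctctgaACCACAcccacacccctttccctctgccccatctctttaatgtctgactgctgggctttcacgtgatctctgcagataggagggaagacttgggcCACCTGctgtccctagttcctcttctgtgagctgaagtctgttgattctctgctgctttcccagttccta
Plac8: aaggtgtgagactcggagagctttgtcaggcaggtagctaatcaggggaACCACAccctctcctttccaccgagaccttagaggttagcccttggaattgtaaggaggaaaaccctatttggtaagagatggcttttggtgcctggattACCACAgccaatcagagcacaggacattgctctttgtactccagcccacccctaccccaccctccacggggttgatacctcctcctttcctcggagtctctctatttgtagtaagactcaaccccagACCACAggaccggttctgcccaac
Spib: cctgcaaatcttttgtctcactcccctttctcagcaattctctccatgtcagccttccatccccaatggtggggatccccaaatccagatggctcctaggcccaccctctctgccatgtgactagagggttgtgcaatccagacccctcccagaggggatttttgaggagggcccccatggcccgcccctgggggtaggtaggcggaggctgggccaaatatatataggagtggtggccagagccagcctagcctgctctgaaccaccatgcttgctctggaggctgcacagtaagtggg
CACCTG, the E-box form that E proteins such as Tcf4 bind, begins 20 bases before the start in Siglech, and is found in 20.0% of 27025 promoters of this length. ACCACA begins 115 bases before the start in Siglech and at -201, -101 and 26 in Plac8, and is found in 16.9% of promoters. Neither of these, nor CAGCTG (16.1%) nor the Ets motif GAGGAAGT (3.3%), is in the Spib window. The motifs do not sort the members by their relation to Cox6a2: of the other matched members, CACCTG is also in the Cd300c, Ccr9 and Klk1 windows, and ACCACA in those of Cd300c, Ly6c2 and Runx2. These matches are letters in a window and describe no binding.

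Cox6a2 encodes the muscle and heart isoform of subunit VIa of cytochrome c oxidase, the last complex of the respiratory chain, and among mouse dendritic cells it marks pDC. It lies on the minus strand of chromosome 7 from 127804607 to 127805559 as deposited (ENSMUSG00000030785). Cox6a2 stood at 56.1, 13.07 and 13.01 FPKM in CLP-cDC2, against 3.66, 2.202 and 0.631 FPKM in CDP-cDC2. Every CLP-cDC2 library was above every CDP-cDC2 library, and replicate 1 was far above the other two. The log2 difference was 2.95 ± 0.52 (SE, limma adjusted p = 0.0036). It was called by limma in 20 of 20 alternative settings, from 1.94 to 3.53 with adjusted p up to 0.034, and without CLP-cDC2 replicate 1 it was 2.28 (adjusted p = 0.009). In the reporter mice Cox6a2 was 7.07, 3.19 and 2.62 FPKM in L-cDC2 and 0.881, 1.58 and 1.94 FPKM in M-cDC2. Those groups did not overlap either, but the difference of 1.03 ± 0.52 (95% interval -0.10 to 2.17) did not pass the test (limma adjusted p = 0.66).

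Groups that do not overlap were found for Cox6a2, Plac8 and Tlr7 in CLP-cDC2 against CDP-cDC2, 3 of 8 tested members, and for 29.7% of all genes tested. For L-cDC2 against M-cDC2 they were found for Cox6a2, Cd300c and Tlr7, 3 of 8, and for 19.4% of all genes. The test of the difference between both lineage comparisons gave 1.92 ± 0.74 for Cox6a2 (limma adjusted p = 0.13), so that the larger value in the transfer system was not shown to differ from that in the reporter mice; in that test 5.99% of all genes were called (2.38% above 0, 3.61% below). CLP-cDC2 also exceeded L-cDC2 in Cox6a2, by 2.17 ± 0.52 (limma adjusted p = 0.02). The limma call was lost without a filter on low values (adjusted p = 0.11) and without CLP-cDC2 replicate 1 (1.5, adjusted p = 0.059), L-cDC2 replicate 2 (2.05, 0.083) or L-cDC2 replicate 3 (1.95, 0.074). By group mean the order was CLP-cDC2 at 27.4 ± 24.9, L-cDC2 at 4.29 ± 2.42, CDP-cDC2 at 2.16 ± 1.52 and M-cDC2 at 1.47 ± 0.54 FPKM (SD, n = 3 each), and L-cDC2 and CDP-cDC2, like CDP-cDC2 and M-cDC2, overlapped.

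These levels rest on few reads outside CLP-cDC2. The recovered reads of Cox6a2 were 1295.5, 405.5 and 375.5 in CLP-cDC2, 91, 84 and 17.5 in CDP-cDC2, 172.5, 57.5 and 131.5 in L-cDC2 and 27, 53 and 67 in M-cDC2. Some of these values are not whole reads. The span of Cox6a2 overlaps that of Itgad, an integrin chain on the other strand. The use of strand in the counting is a point not given in the sources used here. Whether the pair shares counted bases was not examined, so some of their reads may not be told apart. Itgad itself was 2.22 to 3.48 FPKM in CLP-cDC2 and 2.90 to 3.07 FPKM in CDP-cDC2, a difference of -0.10 (95% interval -0.49 to 0.29; limma adjusted p = 0.74). Cox6a1, the isoform of the same subunit used in most tissues, was far more abundant, at 652 ± 34.1 FPKM in CLP-cDC2, 546 ± 71.4 in CDP-cDC2, 542 ± 40.7 in L-cDC2 and 594 ± 79.1 in M-cDC2 (SD, n = 3 each), and its differences did not pass the test, at 0.26 in CLP-cDC2 minus CDP-cDC2 (limma adjusted p = 0.19) and -0.13 in L-cDC2 minus M-cDC2 (adjusted p = 0.81).

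Siglech, a sialic acid-binding lectin that is a surface marker of mouse pDC and dampens their interferon response, is on the plus strand of chromosome 7 from 55417926 to 55428673 as deposited (ENSMUSG00000051504). Siglech was 8.37, 3.38 and 3.65 FPKM in CLP-cDC2 and 1.67, 3.64 and 0.754 FPKM in CDP-cDC2. CLP-cDC2 replicate 1 was again the highest library, and CDP-cDC2 replicate 2 lay level with the other CLP-cDC2 libraries. The difference of 1.04 ± 0.37 missed the threshold (limma adjusted p = 0.084; 95% interval 0.24 to 1.85), and passed it without CDP-cDC2 replicate 2 (1.41, adjusted p = 0.031). Siglech was 1.44, 1.715 and 1.35 FPKM in L-cDC2 and 0.275, 1.37 and 1.39 FPKM in M-cDC2, which overlapped (0.37 ± 0.37, limma adjusted p = 0.81). All 3 CLP-cDC2 libraries were above all 3 L-cDC2 libraries, with a difference of 1.21 ± 0.37 (limma adjusted p = 0.057) that passed in 6 of 19 alternatives, at adjusted p from 0.026 to 0.21. Siglech, Cox6a2, Plac8, Spib, Runx2 and Tlr7 were the 6 of 8 tested members without overlap in that comparison, against 35.8% of all genes.

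Plac8 encodes a small cysteine-rich protein abundant in pDC and in other myeloid cells, and lies on the minus strand of chromosome 5 from 100701591 to 100720111 (ENSMUSG00000029322). Plac8 was 814, 595 and 711 FPKM in CLP-cDC2 and 594, 500.5 and 375 FPKM in CDP-cDC2. The groups were separated by less than 1 FPKM, between CLP-cDC2 replicate 2 and CDP-cDC2 replicate 1. The difference was 0.54 ± 0.16 (limma adjusted p = 0.041). It was called by limma in 7 of 20 alternatives (adjusted p from 0.013 to 0.15): the call was lost without a filter on low values (0.15), with quantile normalization (0.37, 0.089), with only those 2 groups in the fit (0.15), with CDP-cDC2 replicate 3 and M-cDC2 replicate 3 both left out (0.36, 0.1), and without CLP-cDC2 replicate 1 (0.43, adjusted p = 0.13) or 3 (0.53, 0.094), CDP-cDC2 replicate 2 (0.57, 0.069) or 3 (0.36, 0.12), any one L-cDC2 replicate (0.053 to 0.058), M-cDC2 replicate 1 (0.056) or M-cDC2 replicate 2 (0.059). Plac8 was 459, 418 and 410.2 FPKM in L-cDC2 and 489, 457 and 497 FPKM in M-cDC2, a difference of -0.16 ± 0.16 (limma adjusted p = 0.8; 95% interval -0.51 to 0.18). The difference between both lineage comparisons was 0.71 ± 0.22 (limma adjusted p = 0.08, and 0.027 without CDP-cDC2 replicate 1). CLP-cDC2 exceeded L-cDC2 by 0.71 ± 0.16 (limma adjusted p = 0.014), a call lost without a filter (0.064) and without CLP-cDC2 replicate 1 (0.60, 0.062), L-cDC2 replicate 2 (0.69, 0.058) or L-cDC2 replicate 3 (0.68, 0.052).

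Tlr7, the endosomal receptor for single-stranded RNA, was the member called in the direction opposite to Cox6a2 and Plac8 in CLP-cDC2 against CDP-cDC2. It lies on the minus strand of chromosome X from 166087925 to 166113554 (ENSMUSG00000044583). Tlr7 was 1.36, 2.26 and 2.39 FPKM in CLP-cDC2 and 4.29, 4.22 and 5.84 FPKM in CDP-cDC2, with no overlap. The difference was -0.95 ± 0.18 (limma adjusted p = 0.0056), and it was called in 19 of 19 alternatives, from -1.24 to -0.48 with adjusted p up to 0.045. In the reporter mice the order was turned round, at 3.78, 4.50 and 4.16 FPKM in L-cDC2 and 2.50, 2.60 and 1.85 FPKM in M-cDC2. That difference, 0.64 ± 0.18, did not pass the test (limma adjusted p = 0.16), but the difference between both lineage comparisons did, at -1.59 ± 0.26 (limma adjusted p = 0.0054; called in 18 of 18 alternatives, adjusted p up to 0.022). Tlr7 was the 1 of 8 members called there.

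Across the systems Tlr7 fell in CLP-cDC2 against L-cDC2 (-0.79 ± 0.18, limma adjusted p = 0.016) and rose in CDP-cDC2 against M-cDC2 (0.80 ± 0.18, limma adjusted p = 0.041). The first limma call was lost without CLP-cDC2 replicate 1 (-0.63, adjusted p = 0.065), L-cDC2 replicate 2 (-0.74, 0.074) or L-cDC2 replicate 3 (-0.79, 0.052). The second limma call held in 5 of 19 alternatives (adjusted p from 0.031 to 0.16), with 0.57 (0.16) when CDP-cDC2 replicate 3 and M-cDC2 replicate 3 were left out together. Leaving out 1 library ended it for CLP-cDC2 replicate 2 (0.051), for CDP-cDC2 replicate 1 (0.065) and replicate 3 (0.11), for each L-cDC2 replicate (0.056 to 0.065) and for each M-cDC2 replicate (0.084 to 0.15). Cd300c, Runx2 and Tlr7 were the 3 of 8 members without overlap between CDP-cDC2 and M-cDC2, against 24.4% of all genes.

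Cd300c, an activating receptor of the CD300 family, was highest in M-cDC2. It lies on the minus strand of chromosome 11 from 114846942 to 114859983 (ENSMUSG00000058728), and reads of its close family members may be split with it. Cd300c was 7.33, 4.49 and 6.01 FPKM in L-cDC2 and 13.1, 15.0 and 12.5 FPKM in M-cDC2. The difference was -1.08 ± 0.22 (limma adjusted p = 0.018). The limma call was lost without a filter (adjusted p = 0.088) and when any of 5 libraries was left out: L-cDC2 replicate 2 (-0.93, 0.11), L-cDC2 replicate 3 (-1.10, 0.069) and M-cDC2 replicates 1 (-1.10, 0.067), 2 (-1.01, 0.11) and 3 (-1.14, 0.053). Cd300c was 7.22, 5.08 and 4.20 FPKM in CLP-cDC2 and 8.32, 9.34 and 5.67 FPKM in CDP-cDC2, which overlapped (-0.43 ± 0.22, limma adjusted p = 0.21). Between CDP-cDC2 and M-cDC2 the groups stood apart but the difference of -0.75 ± 0.22 did not pass (limma adjusted p = 0.085).

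Among the transcription factors of the set, Runx2, which pDC need to leave the bone marrow, and Spib, an Ets factor of pDC and B cells, did not pass the test in either lineage comparison. Runx2 (ENSMUSG00000039153, chromosome 17, 44806874 to 45125684, minus strand) was 5.46, 2.22 and 3.04 FPKM in CLP-cDC2 and 2.55, 2.49 and 2.02 FPKM in CDP-cDC2. It was 1.87, 1.78 and 1.95 FPKM in L-cDC2 and 1.45, 1.99 and 1.42 FPKM in M-cDC2. CLP-cDC2 replicate 1 was the highest library here as well, and no comparison of Runx2 passed the test (0.39 ± 0.22, limma adjusted p = 0.27, in CLP-cDC2 minus CDP-cDC2, and 0.61 ± 0.22, adjusted p = 0.093, in CLP-cDC2 minus L-cDC2, which passed without CLP-cDC2 replicate 2 at 0.84, adjusted p = 0.036). Its long span holds antisense RNAs and Supt3. Whether they share counted bases with Runx2 was not examined, so part of the Runx2 reads may be theirs.

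Spib (ENSMUSG00000008193, chromosome 7, 44175417 to 44181495, minus strand) was 19.5, 16.4 and 18.7 FPKM in CLP-cDC2 and 18.9, 30.3 and 29.1 FPKM in CDP-cDC2. CDP-cDC2 replicate 1 lay among the CLP-cDC2 libraries, and the difference of -0.47 ± 0.18 did not pass (limma adjusted p = 0.11), though it did without that replicate (-0.68, 0.018). Spib was 31.2, 38.9 and 27.4 FPKM in L-cDC2 and 37.5, 34.7 and 29.7 FPKM in M-cDC2, with a difference of -0.07 (95% interval -0.47 to 0.33; limma adjusted p = 0.93). It was lower in every CLP-cDC2 library than in every L-cDC2 library (-0.79 ± 0.18, limma adjusted p = 0.017), a call lost without a filter (0.068) and without CLP-cDC2 replicate 2 (-0.72, 0.061) or L-cDC2 replicate 2 (-0.66, 0.086).

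No comparison of Ly6c2 passed the test, and Ccr9 and Klk1 were not tested. Ly6c2, a GPI-anchored surface protein of pDC and monocytes (ENSMUSG00000022584, chromosome 15, 74980007 to 74983819, minus strand), was 2.02, 1.60 and 0.764 FPKM in CLP-cDC2 and 1.29, 1.13 and 0.194 FPKM in CDP-cDC2 (0.42 ± 0.29, limma adjusted p = 0.37). It was 2.66, 1.89 and 3.95 FPKM in L-cDC2 and 1.26, 2.13 and 1.54 FPKM in M-cDC2 (0.51 ± 0.29, limma adjusted p = 0.68). These values overlap in both pairs and are uncertain, since Ly6c2 has a near-identical neighbour, Ly6c1, at 0.131 to 0.675 FPKM over the 12 libraries.

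Ccr9, the receptor that takes pDC to the gut along Ccl25 (ENSMUSG00000029530, chromosome 9, 123507504 to 123613395, plus strand), ranged from 0.593 to 0.675 FPKM in CLP-cDC2, 0.427 to 0.671 in CDP-cDC2, 0.312 to 0.663 in L-cDC2 and 0.557 to 0.761 in M-cDC2. Its span covers several other genes, among them the pseudogene Gm10052 at a mean of 14.8 FPKM. Whether they share counted bases with Ccr9 was not examined, so these low values may not be of Ccr9 alone. Klk1, a tissue kallikrein with near-identical paralogs (ENSMUSG00000063903, chromosome 7, 43874784 to 43879042, plus strand), was listed at 1.14 FPKM (56.17 reads) in CLP-cDC2 replicate 2 and at 0.533 FPKM (25.9 reads) in M-cDC2 replicate 1. It was at 0 in the other 10 libraries, and 3 reads of Klk1 would be 0.0378 to 0.105 FPKM over the libraries, a limit that covers counting error only.

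**Figure D2:**
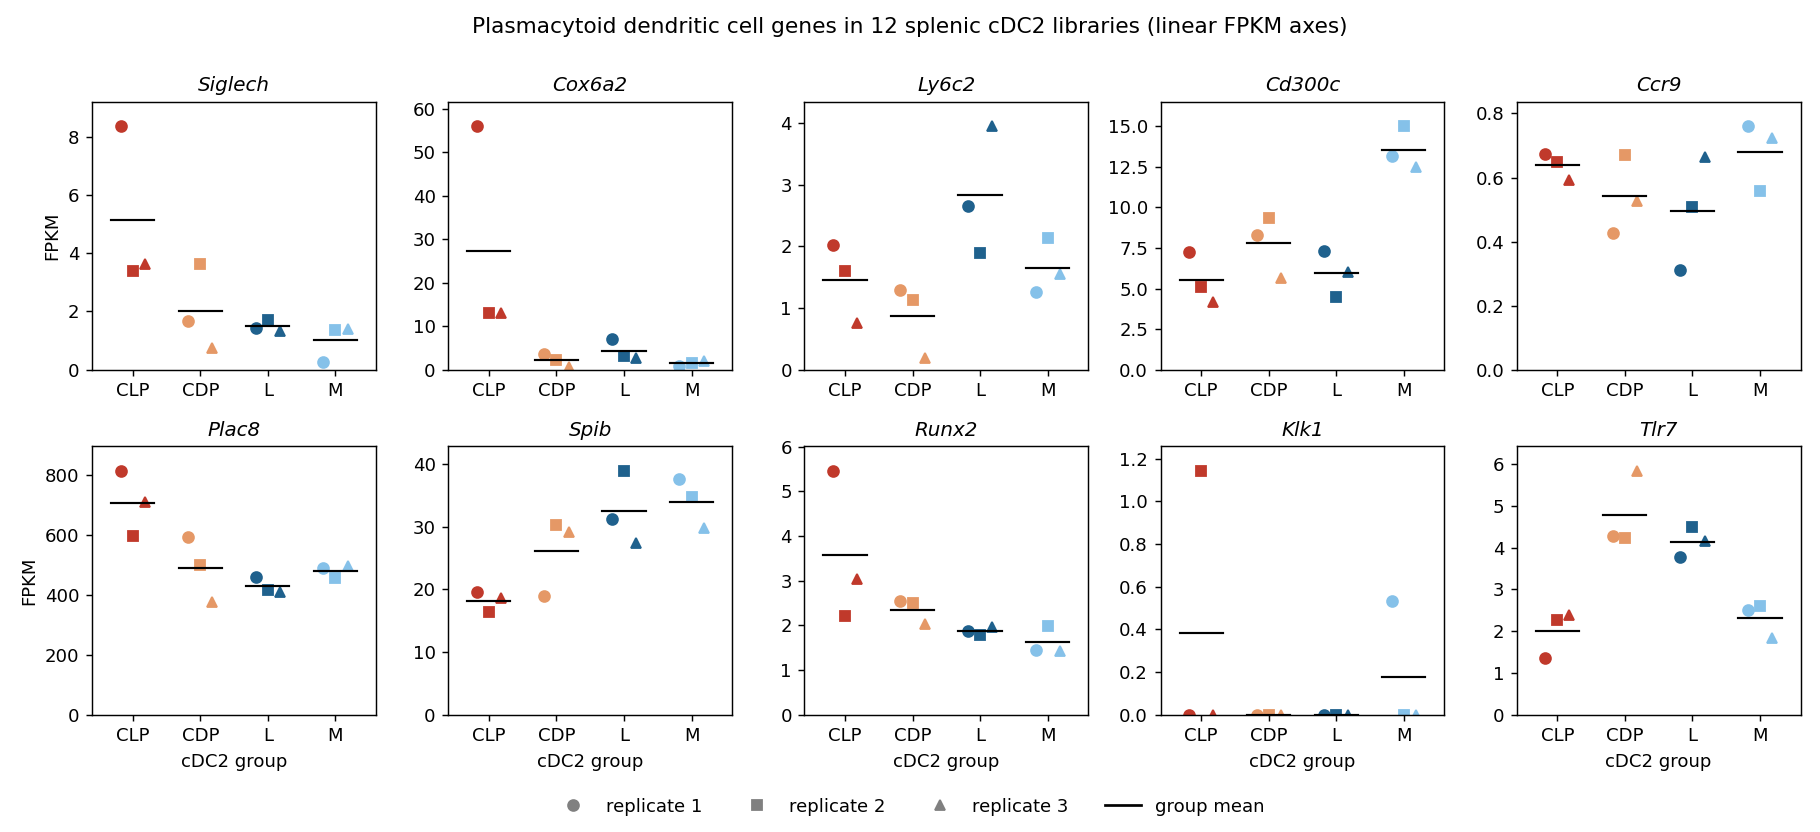
FPKM (y axis, linear, starting at 0) of the 10 genes in CLP-cDC2, CDP-cDC2, L-cDC2 and M-cDC2; points are libraries, shapes are replicate numbers and bars are group means. CLP-cDC2 replicate 1 is the highest library for Siglech, Cox6a2, Plac8 and Runx2 and the lowest for Tlr7, at 1.36 FPKM.

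Whether Cox6a2 varies together with the other members was asked over the 12 libraries. Over all 12 libraries Siglech, Plac8 and Runx2 rose and fell with Cox6a2, Spib ran against it, and the remaining 5 members showed no relation past the threshold. The test used here shuffled all 12 libraries regardless of group, so a difference between groups alone can give a small p. Relations within groups are given further on, where none passed after adjustment. On log2(FPKM + 1), Pearson's r with Cox6a2 was 0.865 for Siglech (adjusted p = 0.0043, n = 12), 0.834 for Plac8 (0.0045), 0.818 for Runx2 (0.011) and -0.696 for Spib (0.021), with p from a two-sided permutation test of 100000 permutations and Benjamini-Hochberg adjustment over the 9 relations. Tlr7 had r = -0.586 (adjusted p = 0.076), Cd300c -0.423 (0.26), Ly6c2 0.225 (0.6), Klk1 0.111 (0.86) and Ccr9 -0.029 (0.93). By rank the relation to Siglech passed (Spearman's rho = 0.811, permutation adjusted p = 0.019), while rho was 0.699 for Plac8 (0.062), 0.559 for Runx2 (0.14), -0.580 for Spib (0.14), -0.427 for Tlr7 (0.25), -0.517 for Cd300c (0.16), 0.301 for Ly6c2 (0.44), 0.048 for Klk1 (0.88) and -0.168 for Ccr9 (0.68).

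**Figure D3:**
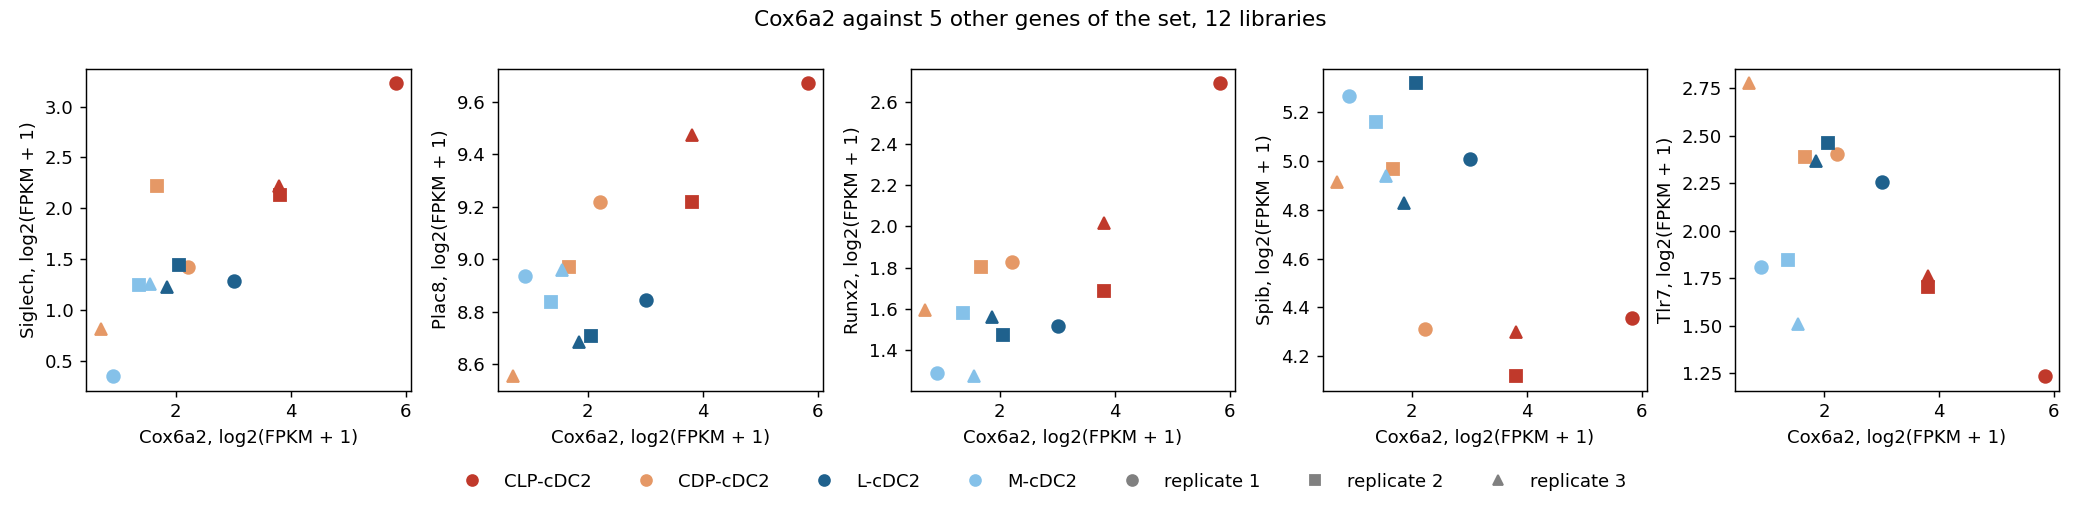
Cox6a2 (x axis) against Siglech, Plac8, Runx2, Spib and Tlr7 (y axes), all log2(FPKM + 1), with 1 point per library, colours for the groups and shapes for the replicates. The 3 CLP-cDC2 libraries hold the highest Cox6a2 values, and CLP-cDC2 replicate 1 lies at the far right of each panel, at 5.83 for Cox6a2.

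These relations rest on the CLP-cDC2 libraries. Without the 2 libraries farthest from the median of Cox6a2, CLP-cDC2 replicates 1 and 2, r was 0.668 for Siglech, 0.659 for Plac8, 0.584 for Runx2 and -0.572 for Spib, each at a permutation adjusted p of 0.18 (n = 10), and -0.173 for Tlr7 (0.64). Without CLP-cDC2 replicate 1 alone, Siglech (0.733), Plac8 (0.704) and Spib (-0.706) each had an adjusted p of 0.048, and Runx2 had 0.554 (0.14). Without the 3 CLP-cDC2 libraries, an alternative chosen after seeing the data, no relation passed in the exact permutation test (n = 9): r was 0.477 for Siglech (adjusted p = 0.53), 0.293 for Plac8 (0.6), 0.245 for Runx2 (0.6), -0.256 for Spib (0.6), 0.114 for Tlr7 (0.77), -0.299 for Cd300c (0.6), -0.429 for Klk1 (0.6), 0.611 for Ly6c2 (0.36) and -0.688 for Ccr9 (0.36). Ccr9 was the 1 of 9 with an unadjusted p under 0.05 there (exact permutation p = 0.04). The share of all genes at that p was not computed.

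Within groups, where each library was set against its group mean, no relation passed after adjustment in the exact permutation test over all orderings within groups. By size, r was -0.884 for Tlr7 and 0.806 for Plac8 (exact permutation adjusted p = 0.066 each), then 0.791 for Cd300c and 0.704 for Siglech (0.082 each), 0.767 for Runx2 (0.11) and 0.568 for Ly6c2 (0.23), and Spib was at -0.196 (0.61). Tlr7, Plac8, Siglech and Cd300c, 4 of 9, had an unadjusted exact p under 0.05, at 0.012, 0.015, 0.035 and 0.036. The share of all genes at that p within groups was not computed, so this count has no background to be read against. For Ccr9 and Klk1 r was -0.298 (0.44) and -0.424 (0.61). Cd300c had values of r of opposite sign over the 12 libraries and within groups, neither past the threshold. Without CLP-cDC2 replicate 1, r within groups was 0.512 for Siglech, 0.354 for Runx2 and 0.684 for Cd300c. Plac8 was then at 0.795 and Tlr7 at -0.77 (exact permutation adjusted p = 0.2 each).

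**Figure D4:**
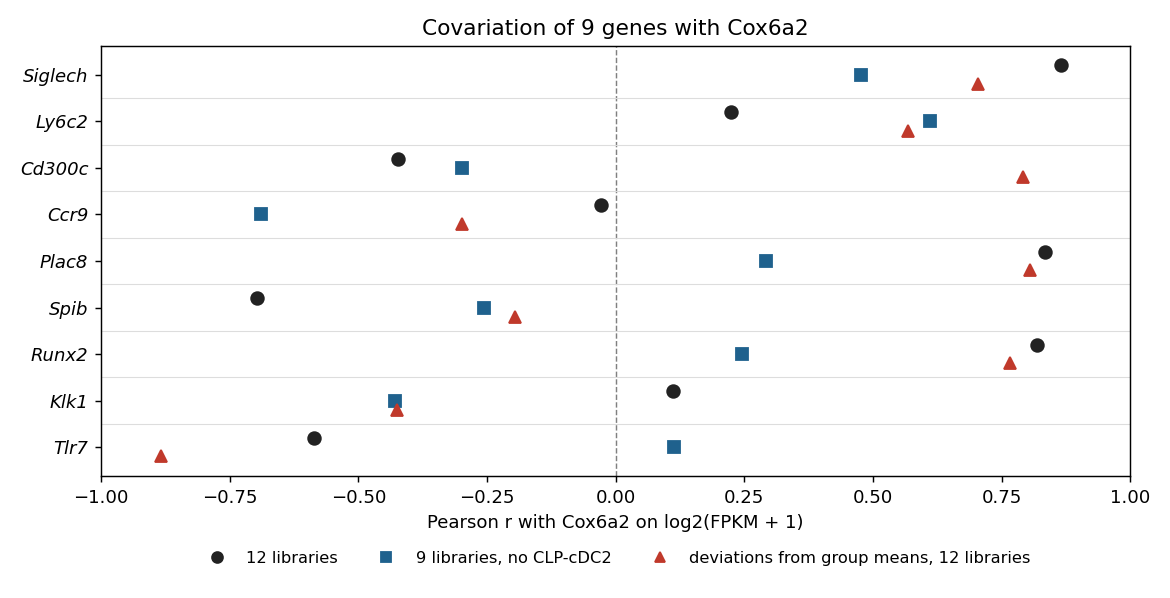
Pearson's r of 9 genes with Cox6a2 (x axis) over 12 libraries (circles), over 9 libraries without CLP-cDC2 (squares) and over deviations from the group means (triangles). Siglech lies at 0.865, 0.477 and 0.704, and Tlr7 at -0.586, 0.114 and -0.884.

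The same measure over every gene gives the setting. Among the other 14537 tested genes the median r with Cox6a2 was 0.023. A size of at least 0.8 was found for 2.86% and a size of at least 0.5 for 28.8%. Without the 3 CLP-cDC2 libraries these shares were 0.46% and 13.2%, with a median r of 0.047. Over the 12 libraries Siglech ranked 71, Plac8 122 and Runx2 177 from the top, and Ly6c2 5171, Cd300c 12243, Tlr7 13414 and Spib 13971. The 10 genes of at least 5 FPKM on average with the highest r were Faap24 (0.949), Gm44238 (0.945), Gpr171 (0.936), Cmc2 (0.936), Mxd3 (0.922), Gm49980 (0.914), Cox7b (0.912), Lgals9 (0.910), Dnajc9 (0.904) and Smc3 (0.903), out of 7648. Lgals9, a galectin, was also among the 5 nearest to Siglech at that level, which were Morn2 (0.884), Rbm27 (0.871), Lgals9 (0.869), Cox6a2 (0.865) and Ier3 (0.865), out of 7649. Without the limit on level, Runx2 (0.868) ranked 5 and Cox6a2 6 in likeness to Siglech. Over the 28 pairs of the 8 tested members, 12 had r above 0 and 16 below, with a median of -0.08, and the median over deviations from group means was 0.48.

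The pDC genes outside the set also split. Of 17 further pDC genes listed, 12 were tested, and in CLP-cDC2 against CDP-cDC2 3 rose and 1 fell. Of all genes tested, 7.02% were called higher and 6.12% lower there. Irf8, the interferon regulatory factor shared by pDC and cDC1, was 79.9, 48.6 and 42.3 FPKM in CLP-cDC2 and 32.1, 23.0 and 21.4 FPKM in CDP-cDC2 (1.096, limma adjusted p = 0.005, called in 20 of 20 alternatives). Smim5 (1.05) and Ly6d (3.76), a marker of lymphoid progenitors and of pDC of that origin, rose with it, and Irf7, the factor that drives interferon genes, fell (-0.53). Without CLP-cDC2 replicate 1, 2 of the 12 were called, and with the replicates 3 of CDP-cDC2 and of M-cDC2 left out also 2. The median difference of the 12 was 0.095 (all genes, -0.01). Tcf4 was 4.23 ± 0.26 FPKM in CLP-cDC2 and 2.72 ± 0.86 FPKM in CDP-cDC2 (SD, n = 3 each), a difference of 0.52 that missed the threshold (limma adjusted p = 0.066).

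In L-cDC2 against M-cDC2, 1 of the 12 rose, Ly6d (4.55), and 1 fell, Irf8, at 28.9, 31.3 and 29.2 FPKM in L-cDC2 and 59.2, 59.7 and 56.1 FPKM in M-cDC2 (-0.95, limma adjusted p = 0.033, called in 12 of 20 alternatives). Of all genes, 1.29% were called higher and 0.44% lower in L-cDC2 against M-cDC2. The difference between both lineage comparisons was called for Irf8 (2.04, in 19 of 19 alternatives) and Smim5 (1.49, in 4 of 19). That difference was called for 5.99% of all genes. CLP-cDC2 exceeded L-cDC2 in Bst2 (0.91), a tetherin used as a pDC marker, and Irf8 (0.86), 2 of 12, with 0 called without CLP-cDC2 replicate 1. Of all genes, 4.29% were called higher and 6.32% lower there. CDP-cDC2 was below M-cDC2 in Irf8 (-1.18), a call lost with the replicates 3 of CDP-cDC2 and of M-cDC2 left out. Of all genes, 0.956% were called lower there. Pacsin1, Mctp2, Havcr1, Ptcra and Upb1 did not pass the filter, and Pacsin1 averaged 1.26 ± 0.61 FPKM in CLP-cDC2 and 0.343 ± 0.203 FPKM in CDP-cDC2 (SD, n = 3 each).

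Of 10 transcription factors of pDC fate, Id2 (0.74) and Irf8 rose and Zeb2 (-0.63) and Irf7 fell in CLP-cDC2 against CDP-cDC2. Without CLP-cDC2 replicate 1, 1 was called, and with the replicates 3 of CDP-cDC2 and of M-cDC2 left out also 1. Id2 and Irf7 were each called in 13 of 20 alternatives and Zeb2 in 5 of 19. Id2 stood at 426 ± 29.2 FPKM in CLP-cDC2 and 264 ± 92.3 FPKM in CDP-cDC2 (SD, n = 3 each). In L-cDC2 against M-cDC2 Irf8 was the 1 of 10 called. Of all genes, 13.1% were called in CLP-cDC2 against CDP-cDC2 and 1.73% in L-cDC2 against M-cDC2. The shares were 10.6% in CLP-cDC2 against L-cDC2 and 2.58% in CDP-cDC2 against M-cDC2. Spib, Irf8 and Irf7 are also counted in the lists above. In CLP-cDC2 against L-cDC2 Irf8, Cbfa2t3 (0.67), a corepressor partner of Tcf4, and Id2 (0.63) rose and Spib fell. Without CLP-cDC2 replicate 1, 1 of the 10 was called there, and Irf8 (limma adjusted p = 0.055), Cbfa2t3 (0.16) and Id2 (0.12) were not. Cbfa2t3 was called in 8 of 20 alternatives and Id2 in 6 of 20. Cbfa2t3 also rose in CDP-cDC2 against M-cDC2 (0.96), where Irf8 fell; with the replicates 3 of CDP-cDC2 and of M-cDC2 left out neither was called (limma adjusted p = 0.056 for Cbfa2t3 and 0.071 for Irf8).

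The genes that carry endosomal Toll-like receptor signals included 5 that fell in CLP-cDC2 against CDP-cDC2. Of 15 tested of 16 listed, these 5 fell, none rose and 10 did not pass the test: Tlr7, the kinase Irak1 (-0.90), Irf7, the endolysosomal transporter Slc15a4 (-0.53) and the adaptor Traf3 (-0.52). The median was -0.27 (all genes, -0.01), and 6.12% of all genes were called lower. Tlr7 and Irf7 are also counted in the lists above. In CLP-cDC2 against L-cDC2, Irak1 (-0.92), Tlr7, Slc15a4 (-0.78), Irf5 (-0.62) and the chaperone Unc93b1 (-0.43) fell, 5 of 15, with a median of -0.35 (all genes, -0.004). Of all genes, 6.32% were called lower there. Without CLP-cDC2 replicate 1, 2 were called in each of these comparisons, and with the replicates 3 of CDP-cDC2 and of M-cDC2 left out 2 were called in the first. In L-cDC2 against M-cDC2, 0 of 15 were called by limma, with 2 at an unadjusted limma p under 0.05 (8.26% of all genes). Tlr9, the DNA sensor, was 0.718 ± 0.133 FPKM in CLP-cDC2, 0.957 ± 0.153 in CDP-cDC2, 1.28 ± 0.15 in L-cDC2 and 0.795 ± 0.367 in M-cDC2 (SD, n = 3 each), and was called in no comparison. The 18 type I interferon genes listed summed to 0 to 0.067 FPKM in CLP-cDC2, 0.069 to 0.274 in CDP-cDC2, 0.0018 to 0.0833 in L-cDC2 and 0.0011 to 0.148 in M-cDC2, and none could be tested.

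Cytochrome c oxidase subunits other than Cox6a2 were also among the genes called. Of 15 tested of 17 listed, Cox6a2 itself included, 5 rose and none fell in CLP-cDC2 against CDP-cDC2. These were Cox6a2, Ndufa4 (0.51), Cox7a2 (0.47), Cox7b (0.45) and Cox5a (0.42). The median, Cox6a2 included, was 0.37 (all genes, -0.01), and 7.02% of all genes were called higher. Over 20 alternatives the count was 1 to 8, and 2 with the replicates 3 of CDP-cDC2 and of M-cDC2 left out; Ndufa4 was called in 7 of them, Cox5a in 6, Cox7a2 in 16 and Cox7b in 12. In CLP-cDC2 against L-cDC2 the count was 4 of 15, Cox6a2, Cox7a1 (1.13), another muscle-type isoform, Cox5b (0.44) and Cox7b (0.43). The median was 0.27 (all genes, -0.004), and 4.29% of all genes were called higher. Cox8b, which did not pass the filter, was at 0 in all CLP-cDC2 and L-cDC2 libraries. Without CLP-cDC2 replicate 1, 3 and 1 were called in these comparisons. In L-cDC2 against M-cDC2 0 of 15 were called by limma, with 1 at an unadjusted limma p under 0.05 (8.26% of all genes), and in CDP-cDC2 against M-cDC2 0 of 15, with 2 (20.1% of all genes). The test of the difference between both lineage comparisons also called 0 of 15, with 9 at an unadjusted limma p under 0.05 (25.0% of all genes) and a median of 0.43 (all genes, -0.05).

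Markers of other cells moved between the same groups, and their part in the results above was not tested. Of all genes, 7.02% were called higher and 6.12% lower in CLP-cDC2 against CDP-cDC2. In L-cDC2 against M-cDC2 the shares were 1.29% and 0.44%. B cell markers, 9 of 12 tested, summed to 427 to 610 FPKM in CLP-cDC2, 359 to 395 in CDP-cDC2, 818 to 983 in L-cDC2 and 425 to 449 in M-cDC2; 4 of 9 rose in CLP-cDC2 against CDP-cDC2 and 8 of 9 in L-cDC2 against M-cDC2. Monocytes also express Ly6c2 and Cd300c, and their markers summed to 63.0 to 128 FPKM in CLP-cDC2, 469 to 606 in CDP-cDC2, 165 to 175 in L-cDC2 and 346 to 377 in M-cDC2, with 4 of 5 and 3 of 5 tested markers lower in the lymphoid group. cDC1 markers, a subset that uses Irf8, rose in 4 of 8 in CLP-cDC2 against CDP-cDC2 and fell in 4 of 8 in L-cDC2 against M-cDC2, the directions of Irf8 itself. Of the cDC2 markers, 8 of 12 fell in CLP-cDC2 against CDP-cDC2. In CLP-cDC2 against L-cDC2, 4 of 8 cDC1 markers rose, and 6 of 12 cDC2 and 7 of 9 B cell markers fell. There also 6 of 6 NK cell, 3 of 4 T cell, 1 of 5 monocyte and 1 of 4 plasma cell markers fell. Of all genes, 4.29% were called higher and 6.32% lower in CLP-cDC2 against L-cDC2. NK cell markers summed to 3.42 to 14.2 FPKM in CLP-cDC2, 0.654 to 7.15 in CDP-cDC2, 183 to 267 in L-cDC2 and 1.37 to 2.59 in M-cDC2, with 6 of 6 tested higher in L-cDC2 than in M-cDC2. T cell markers (1.32 to 35.3 FPKM over the 12 libraries) and plasma cell markers (49.3 to 92.7) were also highest in L-cDC2, and neutrophil genes summed to at most 1.69 FPKM in 10 libraries, with 45.3 in 1 L-cDC2 and 15.2 in 1 M-cDC2 library. Listed markers at 0 in all libraries of a group were Tnfrsf17 in CDP-cDC2 and M-cDC2, Prf1 in CDP-cDC2 and Cd3e in M-cDC2, besides neutrophil genes. CLP-cDC2 replicate 1, the library with the highest Cox6a2 and Siglech, had the highest sum of the 17 other pDC genes (357 FPKM, against 236 and 241 in the other CLP-cDC2 libraries). Bst2 (137), Irf8 (79.9) and Ly6d (68.7) were the large parts of that sum. In the same library the sums of B cell (452) and cDC1 markers (216) lay within or near those of the other CLP-cDC2 libraries (427 and 610, and 198 and 212). Its T cell sum was the highest of the group (14.6 against 11.1 and 7.18 FPKM). Its cDC2 sum was the lowest (7083 against 8780 and 8030 FPKM), as was its monocyte sum. H2-Ab1 made most of that cDC2 sum (6712 against 8371 and 7595 FPKM). The other cDC2 markers were mixed within the group. Cd4, Esam, Clec4a4, Cd209a, Flt3 and Zbtb46 were lowest in replicate 1, Itgax and Itgam were highest, and Sirpa, Irf4 and Clec10a lay between.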

How the data were processed

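RNA from splenic cDC2 was made into SMART-Seq HT and Nextera XT libraries, per the labels' protocols. The authors deposited 1 table of FPKM values for 55322 genes in 12 libraries, and the submitters' processing notes name STAR 2.7.9a and featureCounts 2.0.1, the trimming tools cutadapt 3.7, Trim Galore 0.6.7 and Trimmomatic 0.39, as well as DESeq2 1.20.0. The build of the gene coordinates and the use of strand are not given in the sources used here; the notes list GRCh38 and GRCm38. Depth and reads per gene were recovered from the steps of the FPKM values, taking the commonest low value as 1 read; 44.8 to 53.2% of values above 0 were whole reads (to within 0.0002 reads), so no count test was run.

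Genes of at least 1 FPKM in at least 3 libraries (14538) were tested as log2(FPKM + 1) in limma 3.58.1 (R 4.3.3; a mean per group, trended variance, Benjamini-Hochberg adjustment, threshold 0.05). Correlations used scipy 1.17.1. The code was checked on simulated data. Members and lists were chosen with earlier results of these data known, and 1 listed gene is not reported here. Named genes are all 10 members, up to 4 called genes per other list and comparison by size of difference (where 5 were called the fifth was named after its values were seen), Cox6a1, and the genes with the highest r with Cox6a2 (10) and Siglech (5). Itgad, Ly6c1, Gm10052 and Supt3, which overlap or resemble members, and Tcf4, Tlr9 and Pacsin1 were added after values were seen. Alternatives were other pseudocounts, filters, quantile normalization, only the groups compared, a replicate block, each library left out, and CDP-cDC2 replicate 3 and M-cDC2 replicate 3 left out together. Correlations without CLP-cDC2 were added after the data were seen.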

Additional observations from a re-analysis of the deposited data

Results flagged for a closer look

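The 4 results here are genes whose difference in CLP-cDC2 minus CDP-cDC2 departed from their difference in L-cDC2 minus M-cDC2, by the limma test of that difference itself. Of all genes tested, 5.99% were called in that test. By list, 1 of 8 members, 2 of 12 further pDC genes and 1 of 10 transcription factors were called. For the endosomal Toll-like receptor genes it was 2 of 15, and for the cytochrome c oxidase subunits 0 of 15. Some genes are in more than 1 list. For Tlr7 it was -1.593 ± 0.258 on the log2(FPKM + 1) scale (SE, limma adjusted p = 0.0054), with Tlr7 lower in all 3 CLP-cDC2 than in all 3 CDP-cDC2 libraries and higher in all 3 L-cDC2 than in all 3 M-cDC2 libraries. The other pDC genes were Irf8 at 2.043 ± 0.29 (limma adjusted p = 0.0028) and Smim5 at 1.494 ± 0.399 (adjusted p = 0.047). Irf8 was called in 19 of 19 alternatives and Smim5 in 4 of 19 (limma adjusted p up to 0.19; 1.44 and 0.089 without CLP-cDC2 replicate 1). Irak1, the kinase below Tlr7, was at -1.404 ± 0.36 (limma adjusted p = 0.04), called in 6 of 19 alternatives (adjusted p up to 0.17; -1.41 and 0.072 without CLP-cDC2 replicate 1, -0.91 and 0.079 with the replicates 3 of CDP-cDC2 and of M-cDC2 left out).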

How the results depend on the processing

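Members called in CLP-cDC2 minus CDP-cDC2 numbered 2 to 4 when 1 library was left out, against 3. In L-cDC2 minus M-cDC2 the count of 1 was 0 without a filter on low values and 0 to 1 with 1 library left out. The test of the difference between them called 1 member, 0 with a filter of at least 5 FPKM in at least 3 libraries, which Tlr7 did not pass, and 1 to 2 with 1 library left out. In CLP-cDC2 minus L-cDC2 the count of 4 was 1 without a filter and 0 to 5 with 1 library left out. In CDP-cDC2 minus M-cDC2 the count of 1 was 0 without a filter, with the filter of 5 FPKM, with quantile normalization, with only those groups in the fit, and with the replicates 3 of CDP-cDC2 and of M-cDC2 both left out, and 0 to 1 with 1 library left out. Relations with Cox6a2 past the threshold numbered 4, 3 to 5 with 1 library left out and 0 without CLP-cDC2; within groups they numbered 0, and 0 to 1 with 1 library left out. No direction of a called member value turned under any alternative run; among single values, 47 lost the call, 10 gained it and 715 did neither. The cause was not tested. Correlations of same-numbered deviations ran from -0.43 to 0.28. With 3 libraries per group they cannot decide whether replicate numbers pair the samples. Whether tdTomato-labelled and unlabelled libraries share animals is not given in the labels. With a replicate block the count in CDP-cDC2 minus M-cDC2 was 0 (Tlr7, limma adjusted p = 0.073). The planned voom alternative was not run, since reads were not recovered as whole counts. Over all genes, calls without a filter fell to 576 higher and 491 lower in CLP-cDC2 minus CDP-cDC2, against 1021 and 889, to 293 and 654 in CLP-cDC2 minus L-cDC2, against 623 and 919, to 80 and 175 for the difference of differences, against 346 and 525, and to 40 and 63 in CDP-cDC2 minus M-cDC2, against 236 and 139. With only the groups compared in the fit they were 312 and 375 in CLP-cDC2 minus CDP-cDC2 and 13 and 34 in CDP-cDC2 minus M-cDC2. Quantile normalization gave 134 and 132 in CDP-cDC2 minus M-cDC2 and 174 and 96 in L-cDC2 minus M-cDC2, against 188 and 64. With the replicate block they were 718 and 646 in CLP-cDC2 minus CDP-cDC2, 173 and 52 in L-cDC2 minus M-cDC2, 163 and 314 for the difference of differences, 430 and 709 in CLP-cDC2 minus L-cDC2, and 94 and 92 in CDP-cDC2 minus M-cDC2. Ccr9 and Klk1 failed the filter on low values and were not tested; Ccr9 had 114.92 to 501.92 recovered reads per library.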
